A study of Mus musculus with 3 samples.

Results

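The haemoglobin genes examined here are 7 named rows of the count tables, 3 α-like (*Hba-x*, *Hba-a1* and *Hba-a2*) and 4 β-like (*Hbb-y*, *Hbb-bh1*, *Hbb-bs* and *Hbb-bt*). They are 7 of the 27755 genes listed for the E14.5 tail and the D10 culture and 7 of the 25936 genes listed for D6 PM. Single-cell RNA libraries were made with the 10x 3′ v3 chemistry from 3 sources, with 1 library each and no replicates. The E14.5 tail was dissected from embryos carrying the ScxGFP tendon reporter on a C57BL6 background, and how many embryos were pooled is not stated in the sources used here. The other libraries came from mouse embryonic stem cells carrying the same reporter, which were grown as embryoid bodies with 500 nM LDN-193189 from day 0 and 5 μM CHIR from day 2 to day 6 (D6 PM, paraxial mesoderm). For the D10 culture the cells were then kept to day 10 with SAG at 100 nM, an activator of hedgehog signalling, and with the growth factors FGF2 and TGFβ1, each at 10 ng/mL. Every library went through Annexin V depletion of dead cells, and no untreated culture is among the samples. Because each source has 1 library, no test between sources was possible, and the intervals given are exact 95% intervals that cover counting error only.

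Cells are grouped by the cluster codes deposited with the counts. Tail codes 6 and 12 are clusters 5 and 11 of the study, which labelled both as blood. Culture cells carry the codes of the tail clusters they were assigned to, whereas D6 PM was clustered on its own, so that its code 6 is a different cluster from tail code 6. Code 13 holds no tail cell.

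Haemoglobin is a tetramer of α-like and β-like chains, each carrying a haem group, and it makes up most of the protein of a red cell. In the mouse embryo the first, primitive, red cells arise in the yolk sac and use the ζ chain (*Hba-x*) and the ε-like and βh1 chains (*Hbb-y*, *Hbb-bh1*), with βh1 early and ε-like later. Definitive red cells from the fetal liver use the adult α chains (*Hba-a1*, *Hba-a2*) and the adult β chains (*Hbb-bs*, *Hbb-bt*). The α-like genes lie together on chromosome 11 and the β-like genes on chromosome 7. *Hbb-y* and *Hbb-bh1* are called embryonic β genes in what follows, and *Hbb-bs* and *Hbb-bt* adult β genes.

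The 150 bases before the start of each gene are shown because the members fell into an embryonic and an adult set in the counts, and these windows let the sets be compared. They were read from the RefSeq promoter table (GRCm38.p6), which held 6 of the 7 members, all but *Hbb-bh1*. Each sequence runs 5′ to 3′ toward the gene. Capitals mark 4 motifs searched on both strands. They are CACCC, the letters of Klf family sites, the CCAAT box, GATAA, which holds the core of a Gata family site, and the TATAA box. The reverse complement was marked as well, and no base belonged to more than 1 motif.

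Hba-x, chr11:32276450-32276599, plus strand: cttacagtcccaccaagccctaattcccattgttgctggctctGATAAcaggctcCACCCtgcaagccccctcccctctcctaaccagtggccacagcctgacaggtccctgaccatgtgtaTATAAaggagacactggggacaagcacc

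Hba-a1, chr11:32283522-32283671, plus strand: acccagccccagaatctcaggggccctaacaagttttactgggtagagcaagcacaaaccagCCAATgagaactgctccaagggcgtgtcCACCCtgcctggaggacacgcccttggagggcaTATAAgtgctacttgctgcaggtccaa

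Hbb-y, chr7:103853208-103853357, minus strand: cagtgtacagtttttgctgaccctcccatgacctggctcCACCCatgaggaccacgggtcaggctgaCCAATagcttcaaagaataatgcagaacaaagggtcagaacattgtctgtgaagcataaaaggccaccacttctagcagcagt

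Hbb-bs, chr7:103827929-103828078, minus strand: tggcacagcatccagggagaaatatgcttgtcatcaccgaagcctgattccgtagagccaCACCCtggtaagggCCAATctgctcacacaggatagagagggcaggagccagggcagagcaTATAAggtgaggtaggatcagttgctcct

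Hbb-bt, chr7:103813924-103814073, minus strand: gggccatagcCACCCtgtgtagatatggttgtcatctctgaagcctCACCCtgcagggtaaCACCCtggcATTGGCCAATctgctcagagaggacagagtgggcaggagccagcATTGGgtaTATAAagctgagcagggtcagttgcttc

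The longer table entries of *Hba-a2* and *Hba-a1* were identical over 297 aligned bases, so that the *Hba-a2* window is not printed. *Hba-x* was the only member with GATAA, which 13.3% of all 32851 windows of this length held. CACCC was present in all 6 windows and in 37.4% of all windows. CCAAT was present in every window except that of *Hba-x*, against 24.5% of all windows, and TATAA in every window except that of *Hbb-y*, against 14.2%. *Hbb-bt* held 3 CACCC and 3 CCAAT motifs, whereas *Hbb-bs* held 1 of each, although their windows were 74.3% identical over 148 aligned bases. A match describes the letters and does not show a bound site.

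The 7 genes took 1750153 of 31343741 UMIs in the E14.5 tail (5.58%), 47307 of 53403944 in the D10 culture (0.0886%) and 29499 of 51858825 in D6 PM (0.0569%). The median cell had 13512, 5622 and 8171 UMIs in these libraries, over 2052, 7821 and 5954 cells. Nearly all haemoglobin UMIs lay in few cells, with 219 tail cells (10.7%), 36 culture cells (0.460%) and 28 D6 PM cells (0.470%) holding at least 50 each. These cells, called haemoglobin-rich, held 99.6%, 98.9% and 98.1% of the haemoglobin UMIs of their libraries. The threshold of 50 was chosen after the counts were seen and fell in a gap in each library. The highest cell below it and the lowest above it had 18 and 468 UMIs in the tail, 11 and 101 in the culture, and 36 and 66 in D6 PM. The libraries differed in the remaining cells. At least 1 haemoglobin UMI was found in 95.3% of all tail cells, 6.39% of culture cells and 7.64% of D6 PM cells.

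**Figure D1:**
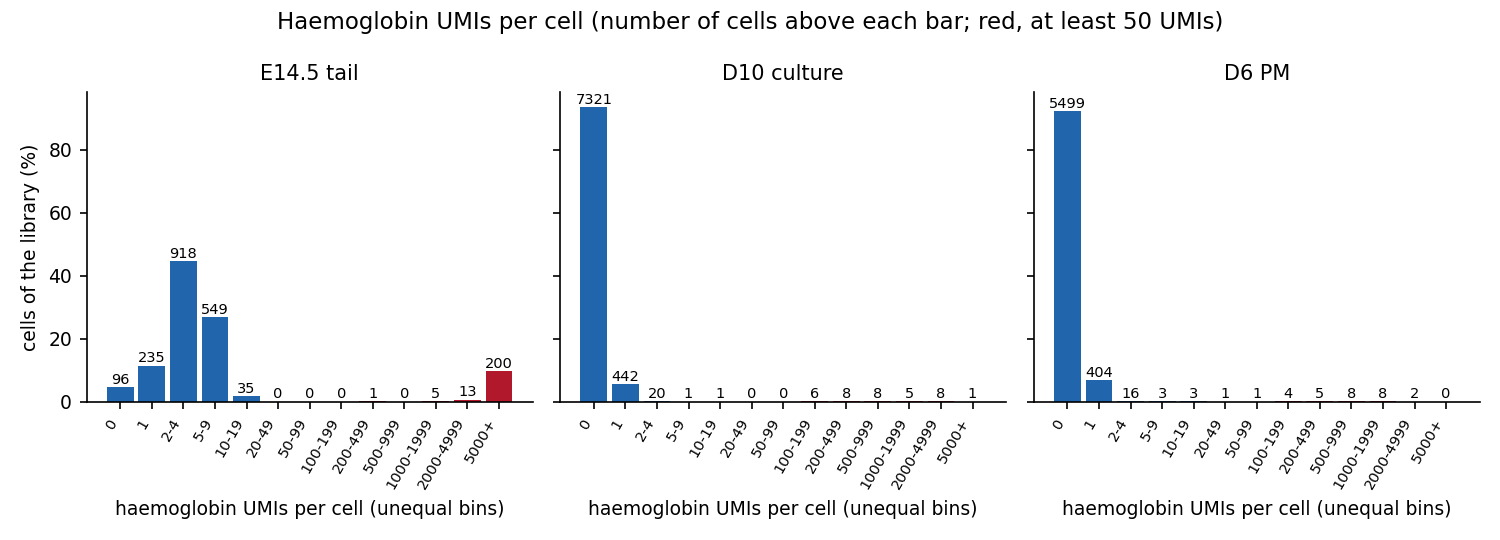
Percent of the cells of each library (vertical axis) by haemoglobin UMIs per cell (horizontal axis, sum of the 7 genes, binned). The panels are the E14.5 tail, the D10 culture and D6 PM, with the number of cells above each bar. Most tail cells had a few UMIs and 219 had at least 468, whereas most culture and D6 PM cells had 0.

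Few barcodes were shared, 4 between the tail and the culture, 3 between the tail and D6 PM, of which 1 was a haemoglobin-rich tail cell, and 10 between the culture and D6 PM. Scrublet called 9 tail (0.439%), 116 culture (1.48%) and 81 D6 PM cells (1.36%) as doublets, and 0 of the haemoglobin-rich cells were among them. The study had removed the top and bottom 2% of cells by transcript number before deposit.

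By cluster code, the summed level of the 7 genes was highest in tail code 12, at 861330 CPM (859566 to 863097, 128 cells), and next in tail code 6, at 691207 CPM (689590 to 692827, 71 cells). Thus, 86.1% of all UMIs of code 12 came from 7 genes. Culture code 6 followed at 27592 CPM (27341 to 27844, 435 cells) and D6 PM code 6 at 15294 CPM (15118 to 15471, 194 cells). The other tail codes ranged from 213 CPM in code 5 to 12034 CPM in code 3, and the other culture codes of at least 20 cells from 7.04 to 44.5 CPM. In D6 PM the other codes ranged from 7.57 to 13.3 CPM. The 4 leading clusters did not overlap in their intervals. In culture code 6 and D6 PM code 6 the median cell nevertheless had 0 haemoglobin UMIs, since 34 of 435 and 27 of 194 cells were haemoglobin-rich. The cell numbers of the lower clusters also limit them, as code 12 of the culture held 1 cell, with 0 haemoglobin UMIs.

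**Figure D2:**
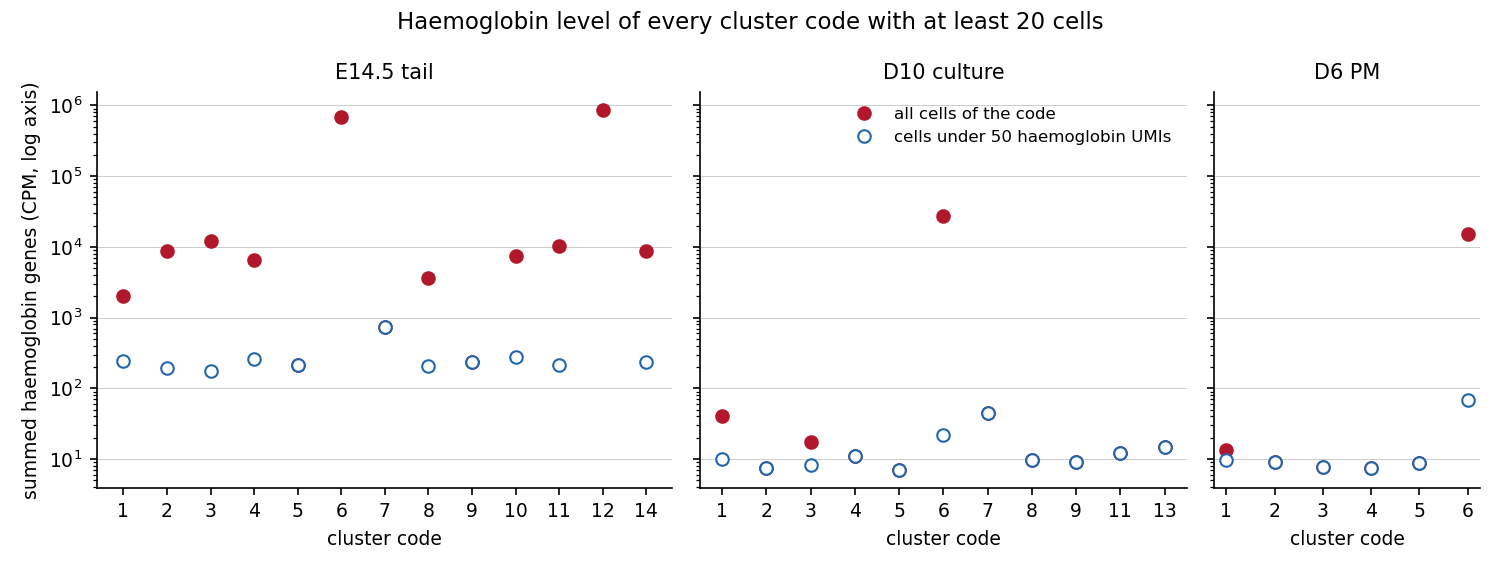
Summed level of the 7 haemoglobin genes (CPM, log axis) in each cluster code with at least 20 cells, by library. Levels are shown for all cells and, where at least 20 cells remained, without haemoglobin-rich cells. Tail codes 12 and 6 stood at 861330 and 691207 CPM, and the other tail codes came to between 174 and 745 CPM once haemoglobin-rich cells were left out.

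Tail code 12 carried the adult set. The median cell had 4121 *Hbb-bs* UMIs (lowest 537, highest 7172), 1835 *Hbb-bt* UMIs (265 to 2752), 1084 *Hba-a1* UMIs (338 to 1871) and 285.5 *Hba-a2* UMIs (100 to 498). The 4 adult genes were therefore high in every one of its 128 cells. Their pooled levels were 481850 CPM for *Hbb-bs*, 214392 for *Hbb-bt*, 130344 for *Hba-a1* and 34306 for *Hba-a2*. The libraries count 1 UMI per captured transcript end, so that levels of different genes are compared without a length correction. Capture of each transcript end was assumed alike and was not tested. The counting was not alike, since reads fitting both adult α genes or both adult β genes were dropped. Levels of these adult genes could therefore be too low, by an amount that is not known.

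The embryonic genes were near 0 in the same cluster. *Hbb-y* came to 161 CPM (138 to 187), with a median of 1 UMI per cell, a highest cell of 6 and 33 of 128 cells without any. *Hba-x* came to 29.2 CPM (19.8 to 41.4), and 104 of the 128 cells had none. These 2 genes were lower in code 12 than in the non-blood tail codes pooled, at 0.145 times (0.124 to 0.169) and 0.174 times (0.118 to 0.247) their level, but the direction turned once haemoglobin-rich cells were left out of those codes. Tail cells under the threshold had 69.6 CPM of *Hbb-y* and 7.75 CPM of *Hba-x*, so that code 12 was at 2.31 times (1.97 to 2.70) and 3.76 times (2.50 to 5.50) their level. Per cell, *Hbb-y* averaged 1.34 UMIs in code 12 and 1.09 in tail cells under the threshold, and *Hba-x* 0.242 and 0.122. The embryonic share of β UMIs in code 12 was 0.0587% (0.0533 to 0.0644).

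*Hbb-bh1* was uneven within code 12. Of its 263 UMIs, 199 came from 1 cell and 17 from another, and the remaining 126 cells had at most 2 each and 47 in all. The cell with 199 *Hbb-bh1* UMIs otherwise had the adult pattern, with 3850 *Hbb-bs*, 1872 *Hbb-bt*, 1480 *Hba-a1* and 369 *Hba-a2* UMIs. It held 1 *Hbb-y* and 1 *Hba-x* UMI. Its 9285 UMIs and 425 detected genes lay within the range of code 12.

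Tail code 6 carried the embryonic set over a lower adult level. *Hbb-y* was its leading gene at 474602 CPM, with a median of 7154 UMIs per cell (lowest 0, highest 17980). *Hba-x* came to 62582 CPM, with a median of 759 UMIs (0 to 3803). The adult α gene *Hba-a1* was at a like pooled level, 66295 CPM (median 948, 146 to 2547 UMIs), and *Hba-a2* at 13324 CPM (median 182, 19 to 660). The adult β genes were lower, with *Hbb-bs* at 46037 CPM (median 296, 1 to 4456) and *Hbb-bt* at 27690 CPM (median 245, 1 to 2267). Of the 46697 *Hbb-bs* and 28087 *Hbb-bt* UMIs of the code, 26258 and 12069 came from 7 of its cells, which are described below. *Hbb-bh1*, the other embryonic β gene, was at 677 CPM (628 to 730), was seen in 49 of 71 cells and had a median of 2 UMIs. The embryonic share of β UMIs was 86.6% (86.5 to 86.7), whereas *Hba-x* made up 44.0% of α UMIs. *Hba-x* exceeded the adult α genes together in 19 of the 71 cells. Reads shared by *Hba-a1* and *Hba-a2* were dropped in the counting, so that this count and the *Hba-x* share could be too high.

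The haemoglobin-rich tail cells fell into separate types by their β genes. No cell had between 10% and 70% embryonic β UMIs. In all, 150 cells were of the adult type and 69 of the embryonic type, in which the embryonic share ran from 74.9% to 99.8% with a median of 93.5%. The α genes parted the same cells without overlap, as *Hba-x* made up at most 0.309% of α UMIs in an adult-type cell and at least 17.3% in an embryonic-type cell. Within the embryonic type its share was wider than that of the embryonic β genes, running to 79.1% with a median of 45.2%. Within these cells the 7 genes took 73.5% (*Hbb-y*), 9.79% (*Hba-x*), 9.28% (*Hba-a1*), 3.08% (*Hbb-bs*), 2.44% (*Hbb-bt*), 1.82% (*Hba-a2*) and 0.0982% (*Hbb-bh1*) of haemoglobin UMIs.

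**Figure D3:**
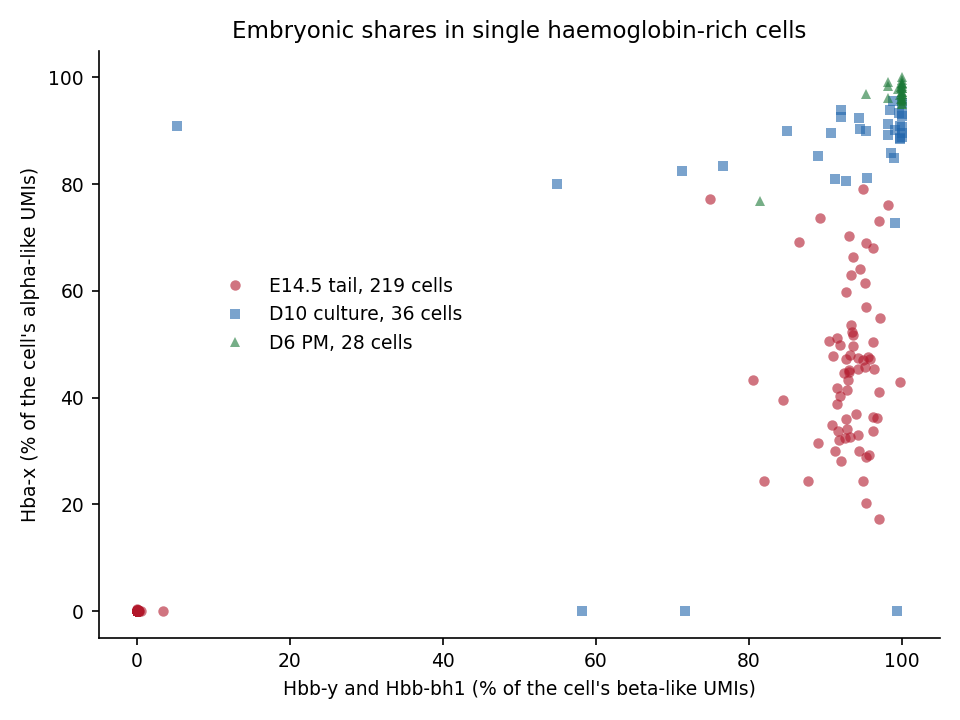
Each haemoglobin-rich cell by its embryonic share of β UMIs (horizontal axis, percent) and its *Hba-x* share of α UMIs (vertical axis, percent), by library. Tail cells lay below 10% or above 70% on the horizontal axis, and the embryonic-type tail cells spread from 17.3% to 79.1% on the vertical axis.

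Code 6 was not uniform, as 7 of its 71 cells were of the adult type. These 7 cells held 26258 *Hbb-bs* and 16 *Hbb-y* UMIs, and their embryonic β share lay between 0.0226% and 0.0960%. They had a median of 4744 detected genes (2569 to 6487), against 458 (225 to 5874) in the 64 embryonic-type cells, 8 of which had at least 1000, and haemoglobin made up a median of 31.7% of their UMIs. Tendon list genes (*Scx*, *Tnmd*, *Mkx*, *Col1a1*, *Col3a1* and *Dcn*) summed to 1965 CPM in these 7 cells and to 467 CPM in the 64 others, or to 2820 and 1935 CPM with haemoglobin UMIs left out of the totals. On the latter scale the cartilage list was at 553 and 663 CPM and the nerve list at 19.1 and 442 CPM, so that the tissue lists did not all point one way. Without them the embryonic share of β UMIs in code 6 was 93.0%. The part of RNA from other cells in this result was not tested.

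Genes that accompany haemoglobin in red cells were compared between each blood cluster and the non-blood tail codes pooled, calling a gene higher from a 4-fold difference up. Since codes 6 and 12 were made from the same counts, these values are descriptions. In code 12, 0.613% of 17780 genes were called higher, with 5 of the 7 haemoglobin genes among them. Of the erythroid membrane and enzyme list, 11 of the 15 genes with enough UMIs were called. Examples are *Slc4a1*, the band 3 anion exchanger, at 248 CPM against 1.33 CPM, and *Car2*, a carbonic anhydrase, at 1245 against 7.31 CPM. Of the haem synthesis and iron list 3 of 12 were called, *Alas2*, the first enzyme of erythroid haem synthesis, being at 3010 against 10.0 CPM. Of the list of regulators 2 of 11 were called, *Gata1* at 9.42 CPM and *Klf1* at 11.3 CPM, which rest on 10 and 12 UMIs. The median ratio was 64.4 in the membrane list, 1.78 in the haem list and 0.445 in the regulators, against 0 over all genes tested, of which 65.1% had 0 UMIs in code 12. In these medians a gene with 0 UMIs in the group has a ratio of 0. With a floor of 3 counts the median over all genes was 0.192. With haemoglobin UMIs left out of the totals, the called numbers came to 14, 9 and 5, against 2.1% of all genes tested, and the medians to 462, 12.7 and 3.19. This scaling multiplies every ratio alike, and the median over all genes with the floor became 1.38.

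In code 6, 0.523% of 17799 genes were called higher, with all 7 haemoglobin genes among them. The erythroid membrane list had 10 of 14 called, at a median ratio of 16.0 against 0.178 over all genes, the haem list 3 of 12 at 0.637 and the regulators 1 of 11 at 0.275. That regulator was *Tal1*, a transcription factor of early blood cells, at 79.9 CPM against 3.08 CPM. *Gata1* had 0 UMIs and *Klf1* 2 UMIs in code 6. With haemoglobin UMIs left out of the totals, the medians of the membrane, haem and regulator lists came to 51.5, 2.05 and 0.885. The median over all genes was then 0.573, and the haem list had turned from below 1 to above 1. These values pool the 7 adult-type and 64 embryonic-type cells of code 6. In the adult-type cells the membrane, haem and regulator lists summed to 5880, 3345 and 299 CPM. In the embryonic-type cells they summed to 2631, 544 and 161 CPM, against 1194, 507 and 337 CPM in the non-blood codes. Without haemoglobin UMIs in the totals, the lists were at 8440, 4801 and 429 CPM in the adult type. In the embryonic type they were at 10910, 2257 and 667 CPM. *Bcl11a*, known as a repressor of embryonic β genes in adult red cells, was at 1.88 CPM in code 12, 38.4 CPM in code 6 and 140 CPM in the non-blood codes. With haemoglobin UMIs left out of the totals it was at 13.6, 125 and 141 CPM, so that code 6 was then at 0.885 times the non-blood level. The macrophage list was near 0 in both, with 13 of 14 genes at 0 in code 12 and 10 of 14 in code 6. Of all genes tested, 65.1% and 27.2% were at 0 in these codes.

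Between the blood clusters, levels were compared per UMI that was not haemoglobin. Of the erythroid membrane list, 13 of 14 genes had an interval above 1 for code 12 over code 6, at a median ratio of 7.99, and of the haem list 8 of 9, at a median of 9.57. Over 2943 genes with at least 20 UMIs in both clusters together the median ratio was 0.250, and 12.3% had an interval above 1. *Alas2* was 13.6 times (12.3 to 14.9) and *Bpgm*, the enzyme that makes bisphosphoglycerate, 9.35 times (8.52 to 10.3) as high in code 12. The 15 code 6 cells with at least 1000 detected genes held 68.2% of the UMIs of code 6 that were not haemoglobin. On the same scale the tendon list was at 577 CPM in code 12 and 2232 CPM in code 6, and the cartilage list at 81.5 and 626 CPM. Against the code 6 cells under 1000 genes, where these lists were at 80.4 and 20.1 CPM, the ratio was 9.90 (8.63 to 11.4) for *Alas2* and 5.48 (4.85 to 6.20) for *Bpgm*. The regulators were divided, as 2 of 6 had an interval above 1, among them *Lmo2* at 19.1 times (10.2 to 39.6), and 3 below 1. Of the latter, *Tal1* at 0.236 times (0.104 to 0.471) was near the median of 0.250 over all genes, of which 17.9% had a ratio above 1. Against the code 6 cells under 1000 genes *Tal1* was at 0.0844 times (0.0371 to 0.169). *Lmo2* had 0 UMIs in those cells and 99 in code 12. The cells of code 12 had a median of 328.5 detected genes and those of code 6 of 487.

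A further 20 haemoglobin-rich cells lay in tail codes other than 6 and 12. They made up 1.08% (0.660 to 1.66) of 1853 cells and held 95% of the haemoglobin UMIs of those codes. They were spread over 8 codes, with 5 cells in code 2, 4 in code 1 and 3 in code 4, and 0 in codes 5, 7 and 9. Their haemoglobin UMIs ran from 468 to 12451 with a median of 6041.5, against medians of 7333.5 in code 12 and 9830 in code 6. They differed more in complexity, with a median of 5043.5 detected genes (3608 to 8494), and haemoglobin made up 27.5% of their UMIs at the median (3.83% to 45.3%). The UMIs that were not haemoglobin came to 1.02 times the median depth of the cell's own code at the median (0.433 to 2.91). By β genes 15 were of the adult type and 5 of the embryonic type, or 75% adult (50.9 to 91.3), against 67.8% of the 199 cells of the blood clusters. *Alas2* was seen in 19 of the 20, in 9 of the 1833 other cells of those codes (0.491%), in 58 of 71 cells of code 6 and in all 128 of code 12. Whether these barcodes held a red cell together with another cell was not tested beyond the Scrublet calls, which took in 0 of the 20.

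These 20 cells set the pooled levels of the non-blood codes. With them the codes together stood at 4590 CPM, and without them at 235 CPM. The level of code 3 went from 12034 to 174 CPM and that of code 11 from 10212 to 211 CPM. Every tail code with a haemoglobin-rich cell stood above every code without one.

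The other 1833 tail cells held 6749 haemoglobin UMIs, or 3.68 per cell with a median of 3. The level was alike across tissue codes, as the median cell had between 2 and 5 UMIs in each, and the CPM without haemoglobin-rich cells ran from 174 in code 3 to 274 in code 10, with code 7 apart at 745. Code 7 also had the lowest median depth, 1881 UMIs. UMIs per cell moved less with depth than depth itself: the shallowest, middle and deepest of 3 equal sets of cells had 2.69, 3.55 and 4.81 haemoglobin UMIs at median depths of 8919, 13936 and 23629. As CPM these were 347.9, 252.0 and 190.4.

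The composition of this low level was compared with that of the haemoglobin-rich cells of the same library. *Hbb-bs* made up 40.3% of haemoglobin UMIs in the low cells and 35.0% in the rich cells, *Hbb-y* 29.7% and 29.4%, *Hbb-bt* 11.8% and 15.8%, and *Hba-a1* 11.5% and 12.7%. *Hba-x* made up 3.30% and 3.91%, *Hba-a2* 3.30% and 3.1%, and *Hbb-bh1* 0.0593% and 0.0551%. The intervals lay apart for 4 of the 7 genes, with *Hbb-bs* higher in the low cells (39.2 to 41.5 against 35.0 to 35.1) and *Hbb-bt*, *Hba-a1* and *Hba-x* lower, and they overlapped for *Hbb-y*, *Hba-a2* and *Hbb-bh1*. *Hbb-bs* made up 77.4% of adult β UMIs in the low cells and 68.9% in the rich cells. The embryonic share of β UMIs was 36.3% (35.1 to 37.6) in the low cells and 36.7% (36.6 to 36.7) in the rich cells, whose intervals overlapped. Among the codes this share ran from 32.4% (27.1 to 38.1) in code 8 to 49.6% (40.7 to 58.5) in code 7. It lay between the values of tail code 12 and tail code 6 in every code. This low level is taken as the background of the tail library, and its source was not tested.

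**Figure D4:**
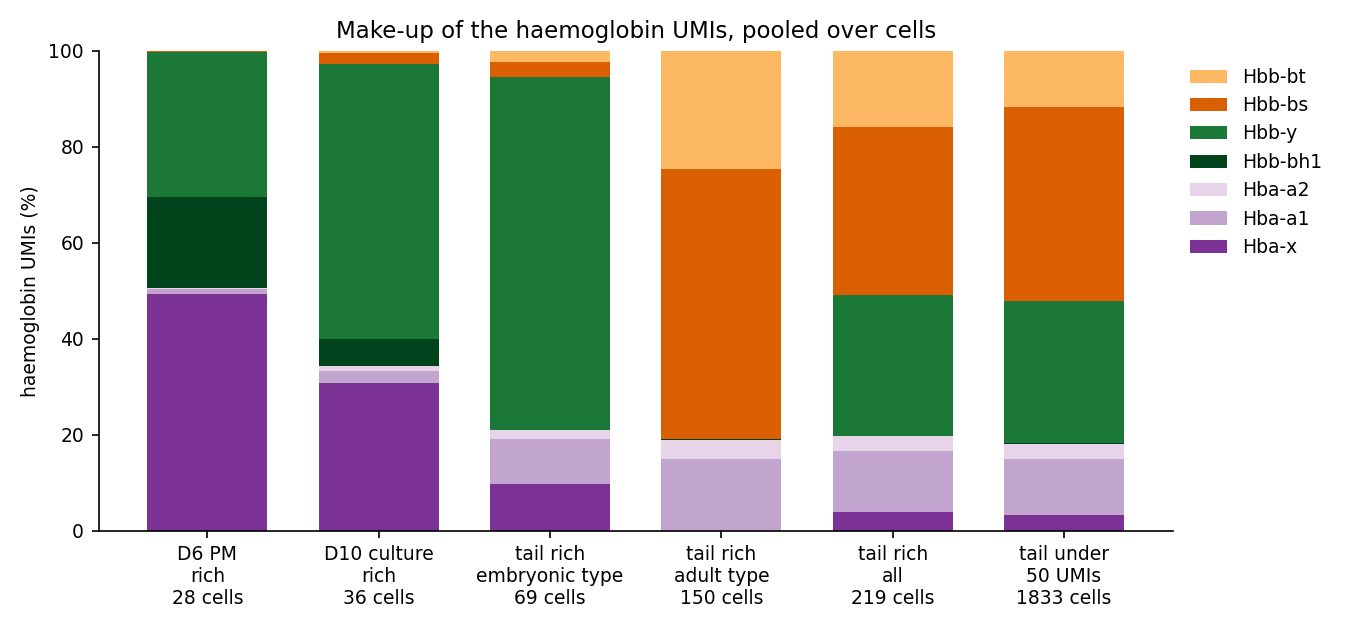
Percent of haemoglobin UMIs taken by each of the 7 genes (stacked bars) in groups of cells of the 3 libraries. In the tail the cells under 50 haemoglobin UMIs had *Hbb-bs* at 40.3% and *Hbb-y* at 29.7%, between the adult-type and embryonic-type cells.

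To compare the libraries at 1 depth, each cell was thinned to 3000 UMIs. In the non-blood tail codes 53.6% (51.2 to 56.0) of 1759 cells then had a haemoglobin UMI, with 94 shallower cells left out, against 94.8% before thinning. By code the share ran from 47.0% to 69.6%. In the culture the codes other than 6 came to between 1.88% and 8.82%, and code 6 to 19.3%. Thinning left out 269 of the 435 cells of culture code 6, of which 12.6% had a UMI before thinning, and 223 of the 257 cells of code 7, which gave the 8.82%. In D6 PM the codes other than 6 came to between 2.16% and 2.97%, and code 6 to 19.0%, with 26 of its 194 cells left out. Each tail code was above each culture and D6 PM code thinned, which leaves out culture codes 10, 12 and 14, with 1 library behind each source.

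In the D10 culture, haemoglobin was high in 36 of 7821 cells, 34 of them in code 6, 1 in code 1 and 1 in code 3. A haemoglobin-rich culture cell had a median of 676 haemoglobin UMIs (101 to 5372), making up 16.1% of its UMIs (1.92% to 66.8%), and 1233 detected genes (213 to 4226). *Hbb-y* was the leading gene with a median of 266 UMIs (0 to 3230), followed by *Hba-x* with 247 (0 to 1572) and *Hbb-bh1* with 55 (0 to 205). The adult genes were low, with medians of 23.5 for *Hba-a1* (1 to 121), 7 for *Hba-a2* (0 to 46), 6.5 for *Hbb-bs* (0 to 162) and 0 for *Hbb-bt* (0 to 54). In counted UMIs the embryonic set therefore led in both chains, since *Hba-x* exceeded the adult α genes together in 33 of 36 cells and the median embryonic share of β UMIs was 98.3% (5.26% to 100%). Reads shared by the adult copies were dropped, which lowers the adult counts by an amount that is not known.

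As shares of their haemoglobin UMIs, *Hbb-y* took 57.2%, *Hba-x* 30.8%, *Hbb-bh1* 5.61%, *Hba-a1* 2.56%, *Hbb-bs* 2.24%, *Hba-a2* 1.01% and *Hbb-bt* 0.568%. Culture code 6 as a whole had an embryonic share of β UMIs of 95.9%, against 86.6% in tail code 6, to which its cells were assigned, and 93.0% in tail code 6 without its 7 adult-type cells. Likewise, *Hba-x* made up 89.7% of its α UMIs, against 44.0% with those 7 cells and 46.4% without them. With 1 library each, the difference between embryo and culture cannot be told apart from a difference between libraries.

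Most cells of culture code 6 did not carry haemoglobin. The 401 cells under the threshold held 33 haemoglobin UMIs in all, or 21.9 CPM. This was 2.41 times (1.64 to 3.44) the 9.07 CPM of low cells in the other culture codes, and 1.61 times (1.002 to 2.47) without the highest cell, which had 11 UMIs. Their erythroid membrane list summed to 710 CPM, against 7329 CPM in the 34 haemoglobin-rich cells of the code. Their pluripotency list (*Pou5f1*, *Nanog*, *Sox2*, *Dppa5a* and *Utf1*) summed to 3741 CPM, against 1556 CPM in the other culture codes. Lists of other cell types were also higher there, with the megakaryocyte list at 66.3 CPM (54.0 to 80.7) against 8.08 CPM, the mast cell and granulocyte list at 28.5 against 9.99 CPM, the macrophage list at 51.7 against 30.9 CPM and the epithelial list at 1180 against 560 CPM. Other lists were lower, with the haematopoietic progenitor list at 36.5 against 96.0 CPM, the erythroid membrane list at 710 against 1002 CPM and the haem list at 479 against 545 CPM. Among tissue lists, tendon was at 1176 against 5040 CPM, cartilage at 95.5 against 546 CPM and muscle at 10.6 against 40.0 CPM. The nerve list, at 149.9 against 83.1 CPM, and the endothelial list, at 75.6 against 57.3 CPM, were higher. Haemoglobin thus marked 34 of the 435 cells of a code that the study labelled blood.

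In D6 PM the haemoglobin-rich cells numbered 28 of 5954, with 27 in its code 6 and 1 in code 1. They had a median of 680.5 haemoglobin UMIs (66 to 4394), or 6.98% of their UMIs (0.715% to 21.8%), and 3911 detected genes (485 to 5427). Here *Hba-x* led, with a median of 491.5 UMIs (44 to 1664), and every cell had it. *Hbb-bh1* had a median of 162 UMIs (11 to 550), also in every cell, whereas *Hbb-y* had a median of 20 and ran from 0 to 2253. *Hba-a1* had a median of 9.5 UMIs (0 to 44). *Hba-x* exceeded the adult α genes together in all 28 cells, with the same loss of shared adult reads.

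Adult genes were low in these cells. *Hba-x* took 49.3% of haemoglobin UMIs, *Hbb-y* 30.1% and *Hbb-bh1* 19.0%, while *Hba-a1* took 1.16%, *Hba-a2* 0.159%, *Hbb-bt* 0.155% and *Hbb-bs* 0.111%. In D6 PM code 6 the embryonic share of β UMIs was 99.5%, and *Hba-x* made up 97.4% of α UMIs. Over all D6 PM cells the 7 genes came to 569 CPM, and to 10.6 CPM without the 28 cells.

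The embryonic β genes differed in their balance between the sources. *Hbb-bh1* exceeded *Hbb-y* in 18 of 28 haemoglobin-rich cells of D6 PM, in 9 of 36 of the culture and in 1 of 71 cells of tail code 6. *Hbb-y* made up over 50% of embryonic β UMIs in 10, 27 and 69 of these cells, and was at 0 in 6, 5 and 1. The 1 tail cell was of the adult type, with 3 *Hbb-bh1* and 0 *Hbb-y* UMIs, and *Hbb-bh1* exceeded *Hbb-y* in 0 of the 64 embryonic-type cells of code 6. Within D6 PM the cells spanned both ends, with 12 of 28 having *Hbb-y* under 5% of embryonic β UMIs. Across cells the *Hbb-y* share of embryonic β UMIs had a Spearman rho with the haemoglobin percent of UMIs of 0.53 in D6 PM (28 cells), 0.68 in the culture (36 cells) and 0.20 in tail code 6 (71 cells). The 71 cells include the 7 adult-type cells, which held 6 *Hbb-bh1* and 16 *Hbb-y* UMIs in all, and no rho without them is given. Cells of 1 library are not independent samples, and the haemoglobin percent includes the *Hbb-y* UMIs themselves. Detected genes per cell had a rho with the haemoglobin percent of −0.17, −0.51 and −0.59.

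**Figure D5:**
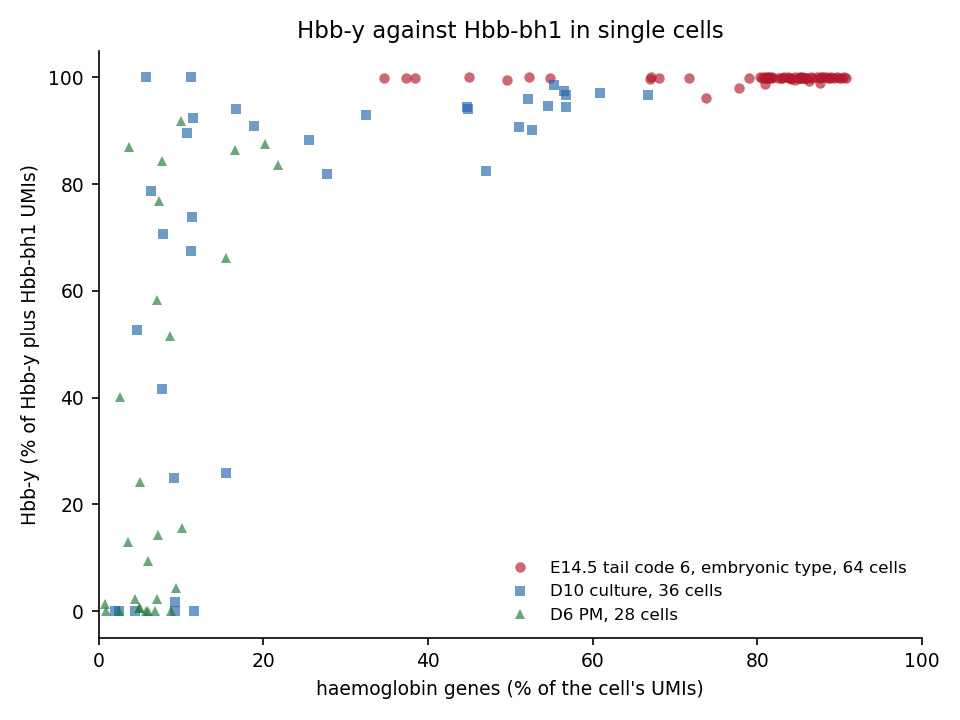
Haemoglobin percent of the cell's UMIs (horizontal axis) and *Hbb-y* percent of *Hbb-y* plus *Hbb-bh1* UMIs (vertical axis) in single cells. Shown are the haemoglobin-rich cells of D6 PM and the D10 culture and the embryonic-type cells of tail code 6. *Hbb-bh1* exceeded *Hbb-y* in 18 of 28, 9 of 36 and 0 of 64 cells.

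Haemoglobin-rich cells of the culture and of D6 PM were also compared with all other cells of their library. In the culture, 1.54% of 18269 genes were called 4-fold higher, and in D6 PM 1.53% of 18550. All 7 members were called in each, which the choice of cells by their haemoglobin fixes. The erythroid membrane list had 10 of 13 genes called in the culture and 12 of 16 in D6 PM, and the haem list 12 of 12 and 11 of 12. The regulators had 6 of 11 and 8 of 13 called. Median ratios of these lists were 28.2, 14.7 and 12.6 in the culture, against 0.136 over all genes, and 143, 13.9 and 20.6 in D6 PM, against 0.382. With genes at 0 set to 3 counts the medians over all genes were 1.48 and 1.27.

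*Alas2* stood at 835 CPM in the haemoglobin-rich culture cells and 325 CPM in those of D6 PM, and *Car2* at 1570 and 1137 CPM. *Klf1*, an activator of β-like genes, was at 100 and 137 CPM, *Gata1*, a master factor of red cell genes, at 83.5 and 86.3 CPM, and *Tal1* at 100 and 114 CPM. *Tmem14c*, a mitochondrial carrier of haem precursors, was at 1503 and 2860 CPM, whereas it was at 4.71 CPM in tail code 12 and 33.5 CPM in tail code 6. With haemoglobin UMIs left out of the totals these levels were 2033, 3087, 34.0 and 109 CPM. *Bpgm* was at 523 CPM in the culture cells and 58.4 CPM in D6 PM, against 2236 CPM in code 12 and 532 CPM in code 6, or 708, 63.0, 16128 and 1724 CPM on the other scale. Of the megakaryocyte list *Itga2b* was called in both. Of the 5 progenitor list genes *Gata2* was called in both, on 5 UMIs in each, and *Runx1* and *Spi1* were called in D6 PM. In the culture *Runx1* and *Cd34* had 1 UMI each in these cells, at 0.0882 times (0.00223 to 0.492) and 0.199 times (0.00504 to 1.11) the level of the other cells, and the interval of *Cd34* includes 1. The macrophage list had 13 of 14 genes at 0 in each, whereas 48.1% of all genes tested were at 0 in the culture cells and 39.9% in D6 PM. It summed to 31.5 and 122 CPM in the other cells of these libraries.

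The cells of D6 PM code 6 under the threshold also stood above the other D6 PM codes. These 167 cells had 102 haemoglobin UMIs, 57 of them *Hbb-bh1*, 32 *Hba-x* and 10 *Hbb-y*. The level of 67.9 CPM was 7.64 times (6.10 to 9.49) that of low cells in the other codes, 8.89 CPM. A few cells carried much of it, since 19 of 167 had any UMI and 1 had 36, and the ratio was 4.99 (3.79 to 6.47) without that cell and 2.38 (1.60 to 3.43) without the 3 highest. *Hbb-bh1* made up 85.1% (74.3 to 92.6) of their embryonic β UMIs, against 31.6% (25.7 to 38.0) in low cells of the other D6 PM codes. This share rested on the same few cells, since it was 70.6% (52.5 to 84.9) without the highest cell and 30.8% (9.09 to 61.4) without the 3 highest. Endothelial list genes (*Pecam1*, *Cdh5*, *Tie1*, *Tek*, *Kdr*, *Emcn* and *Cldn5*) summed to 1979 CPM in these 167 cells, 48.3 CPM in the haemoglobin-rich cells of the code and 29.6 CPM in the other codes.

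The split between near-identical copies is uncertain. The transcripts of *Hba-a1* and *Hba-a2* were 99.8% identical over 538 bases, and 84.1% of the 55-base windows in the last 400 bases of *Hba-a1* also occurred in *Hba-a2*. For *Hbb-bs* and *Hbb-bt* the identity was 93.1%, and 54.0% of *Hbb-bs* windows occurred in *Hbb-bt*. Reads that fit more than 1 place were dropped by the counting, and the number lost from each gene is not known. No such window of *Hba-x*, *Hbb-y* or *Hbb-bh1* occurred in another member, so that the loss between members falls on the adult genes. Every *Hba-x* share of α UMIs and every embryonic share of β UMIs given here could therefore be too high. The ratio of α to β UMIs was 0.236 in tail code 12, 0.259 in tail code 6, 0.524 in the haemoglobin-rich culture cells and 1.02 in those of D6 PM, and it is subject to this loss.

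*Hbb-bs* made up 69.2% of adult β UMIs in the median cell of code 12 (61.1% to 76.6%). In the embryonic-type tail cells with at least 20 adult β UMIs, 68 in number, the median was 57.2% and the range 4.54% to 98.2%. The adult pair was thus in a narrow ratio in the adult-type cluster and a wide one in the embryonic-type cells.

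Across the 30 groups of a library and a code with at least 20 cells, genes whose level followed the summed haemoglobin level most closely, of 8674 ranked, included *Alas2* (Pearson r of log2 levels 0.94) and *Slc4a1* (0.80). Among the members themselves *Hbb-bs* and *Hbb-bt* followed each other at 0.99, *Hba-a1* and *Hba-a2* at 0.99 and *Hba-x* and *Hbb-y* at 0.94. *Hbb-bh1* followed *Hba-x* at 0.78 and *Hbb-bs* at 0.33. Groups of 1 library share its background and its depth, so these values describe the groups and carry no test.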

How the data were processed

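The authors sequenced 10x 3′ v3 libraries, aligned and counted them with Cell Ranger, dropped reads mapping to several places, and removed cells above 7.5% mitochondrial reads and the top and bottom 2% of cells by transcript number. They clustered with Seurat 3.0. The genome build is not given in the sources used here. The deposited tables hold raw counts of UMIs per gene and cell with a cluster code for each cell.

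UMIs were summed over the cells of each code and divided by all UMIs of those cells (CPM). Intervals were exact at 95%: Poisson for levels, Clopper-Pearson for shares and conditional binomial for ratios. A gene was called higher at 4-fold or more with at least 20 UMIs over both groups, a rest at 0 being set to 3 counts. A group under 3 UMIs was never called higher, a condition added after the data were seen. Cells were thinned to 3000 UMIs with seed 1. Doublets were called with Scrublet at an expected rate of 6% and kept. Genes named were the 7 members, genes of the marker lists with at least 20 UMIs over the groups compared (others are named with their counts), and the 5 whose log2(CPM + 1) was most like the summed members, among genes of at least 100 UMIs and 50 CPM in 1 group. Some genes named by this rule are not reported here. *Hbb-bh0*, *Hba-ps3* and *Hba-ps4* were chosen after their values were seen. The members and lists were chosen with earlier results of these data known. The fold rule was tested on simulated data. Python 3.11.15, NumPy 2.4.6, SciPy 1.17.1, Scanpy 1.11.5 and Matplotlib 3.10.9 were used. Promoter sequences came from RefSeq (GRCm38.p6) and transcript sequences from GENCODE M release 21.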

Additional observations from a re-analysis of the deposited data

How the results depend on the processing

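No paired analysis was possible because each group has 1 library, and no replicate could be left out. Of 59 alternative values 26 stayed within the counting interval, or within 1.5 times for counts, and the remaining 33 are given here. Levels of the 7 genes together, in CPM, moved as follows. Tail code 12 (861330) came to 599722 in the 1 of its 128 cells with at least 1000 genes, 6.21137e+06 with haemoglobin left out of the denominator and 856873 as a mean over cells, and tail code 6 (691207) to 408068 over 15 such cells, 2.23842e+06 and 746512. The other tail codes together (4590) came to 4631 without called doublets, 3150 as a mean over cells, 251 without the 1% of cells with most haemoglobin UMIs and 235 without haemoglobin-rich cells. Culture code 6 (27592) came to 34591 without called doublets, 25332 over cells with at least 1000 genes, 28374 with haemoglobin out of the denominator, 22202 as a mean over cells, 18088 without the top 1% and 21.9 without haemoglobin-rich cells. All D6 PM cells (569) came to 583 without called doublets, 376 as a mean over cells and 10.6 without haemoglobin-rich cells. The embryonic share of β UMIs was 0.0159% in the 1 code 12 cell with at least 1000 genes. For code 6 it was 62.8% over the 15 such cells, 83.7% as a mean over cells and 86.4% without the top 1%. For the other tail codes (30.0%) it was 36.5% as a mean over cells, 33.9% without the top 1% and 36.3% without haemoglobin-rich cells. The share of non-blood tail cells with a haemoglobin UMI (53.6%) was 24.9% at 1000 UMIs and 71.3% at 5000. Genes called higher numbered 373 in code 12 (109) and 275 in code 6 (93) without haemoglobin in the denominator, 59 and 52 at 10-fold, and 50 in code 6 with at least 100 UMIs. Leaving out haemoglobin-rich cells, and thresholds of 20 and 200 UMIs for them, were chosen after seeing the data, as were leaving out the highest cells of culture code 6 and D6 PM code 6 and taking the code 6 cells under 1000 genes alone. The thresholds gave 219 and 219 such cells in the tail, 36 and 30 in the culture, and 29 and 23 in D6 PM.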

Other observations

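Other globin rows followed the embryonic and adult sets unevenly. *Hbb-bh0*, a further β-like row of the tables chosen after its values were seen, had 641 UMIs in tail code 6 (632 CPM, 61 of 71 cells, median 8) and 0 in tail code 12. It had 28 UMIs in the haemoglobin-rich cells of the culture and 8 in those of D6 PM. The θ-like rows did not follow this split, since *Hbq1a* was at 60.3 CPM in code 12 and 25.6 CPM in code 6 and *Hbq1b* at 38.6 and 31.5 CPM. Per UMI that was not haemoglobin, *Hbq1a* was 5.24 times (3.27 to 8.61) and *Hbq1b* 2.73 times (1.67 to 4.47) as high in code 12. *Hbq1a* had 0 UMIs in the haemoglobin-rich cells of the culture and of D6 PM, in which *Hbq1b* was at 178 CPM (122 to 251) and 35.5 CPM. The pseudogene rows *Hba-ps4* and *Hba-ps3* had 62 and 39 UMIs in code 12 and 29 and 7 in code 6. Reads from the coding copies could be counted in these rows, which was not tested.

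The adult β genes were unevenly split between cells of the culture. Of its 16 haemoglobin-rich cells with at least 20 adult β UMIs, 8 had at least 90% from *Hbb-bs*, 3 had at most 10% and 5 lay between. In tail code 12 all 128 cells lay between. In the culture, 1 cell of code 6 had 54 *Hbb-bt*, 0 *Hbb-bs* and 0 *Hbb-y* UMIs with 40 *Hba-x* UMIs, and its embryonic share of β UMIs, 5.26%, was the lowest of the 36. Another cell of code 6 had 46 *Hbb-bt* and 0 *Hbb-bs* UMIs beside 55 *Hbb-bh1* and 92 *Hba-x* UMIs.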
